A study of Mus musculus with 6 samples.

Results

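The genes described here are 10 members of the AP-1 and immediate early group, namely Fos, Fosb, Fosl1, Fosl2, Jun, Junb, Jund, Egr1, Ier2 and Ier3, taken by symbol from a table of 23420 mouse genes. Their levels were compared between eEnd2 cells, a mouse endothelial line of embryonic origin, that carried a human Integrin-β1A with GFP inserted in its extracellular part, either wildtype (β1-WT-GFP) or with the K794Q exchange of a lysine for glutamine, which mimics acetylation (β1-K794Q-GFP). Each group holds 3 cultures, lettered A, B and C. All 6 cultures therefore expressed a human chimera from a plasmid with a short human actin promoter, were sorted for GFP after transfection, were grown to confluence in serum-containing medium and received no treatment. The labels name populations sorted for low and for high GFP without saying which of them a culture came from, and no untransfected cells were compared. The comparison asks whether the acetylation-mimetic Integrin-β1 changes the transcripts of genes that lie downstream of growth factor and adhesion signalling.

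AP-1 is a dimeric transcription factor made of Fos and Jun proteins, which pair through a leucine zipper and bind DNA with an adjoining basic region. Fos proteins need a Jun partner, whereas Jun proteins can also pair with each other. Immediate early genes are transcribed within minutes after serum, growth factors, adhesion or stress reach the cell, without new protein synthesis, and their messengers are short-lived, so that a measured level reflects the state of the cells close to the moment of lysis. In endothelial cells they respond to growth factors such as VEGF, to thrombin and to shear stress.

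The deposited values are numbers of reads per gene, between 9589826 and 15287191 per culture, and they are given below as normalized counts (CPM after TMM scaling), always in the order A, B, C where 3 values stand for a group. A gene with a count of 0 could have had up to 3 counts, which corresponded to between 0.209 and 0.300 normalized counts. The likeness of cultures within a group varied. Among genes with a mean of at least 1 normalized count, β1-WT-GFP culture A stood 2-fold or more from culture B in 117 and from culture C in 2842, and culture B stood that far from culture C in 2676. Pairs of β1-K794Q-GFP cultures differed that much in 988 to 2642 genes. Counts of cultures A and B still differed by more than counting error (chi-square over genes, divided by its degrees of freedom, of 10.0 against 59.8 to 288 for the other pairs), and both were kept as separate samples, as labelled. Culture C of the β1-WT-GFP cells stood apart, and results that rest on it are given with and without it. Without it the β1-WT-GFP group holds only A and B, in which 0 of the 10 members were 2-fold apart. The study sequenced 3 different cultures of each kind of sorted cells, and its methods describe no repeated transfections. Whether the cultures were grown at separate times is not stated. The p values therefore measure the spread between these samples. A difference that arose between the sorted populations cannot be told apart from one made by the K794Q exchange.

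All 10 members passed edgeR's filter on low counts and were tested among 11608 genes. Transcripts of Junb, which encodes a Jun protein, and of Ier2 and Ier3, both growth factor-induced genes, were lower in β1-K794Q-GFP cells by the thresholds of the study, a 2-fold difference with an unadjusted p no greater than 0.05. None of the 10 was higher at these thresholds. Among all tested genes 5.19% passed them in either direction and 1.71% passed them as lower. None of the 10 members had an adjusted p of at most 0.05 in edgeR's quasi-likelihood test (Benjamini-Hochberg adjustment over all tested genes). Among all genes 0.181% reached that level. In the same test 4 members had an unadjusted p under 0.05, as did 1180 of the 11608 genes. In DESeq2, Junb (adjusted p = 0.0422) and Ier3 (adjusted p = 0.0107) reached the adjusted level, as did 477 of the 11608 genes. The median log2 fold change of the 10 members was -1.45, against -0.02 over all tested genes, and it was 0.57 without β1-WT-GFP culture C, against 0.04 over all genes. The sign of 5 of the 10 members changed when that culture was left out, and Fosl1 (higher) and Ier3 (lower) were then the members past the thresholds. In bulk RNA fewer expressing cells and less RNA per cell cannot be told apart.

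**Figure D1:**
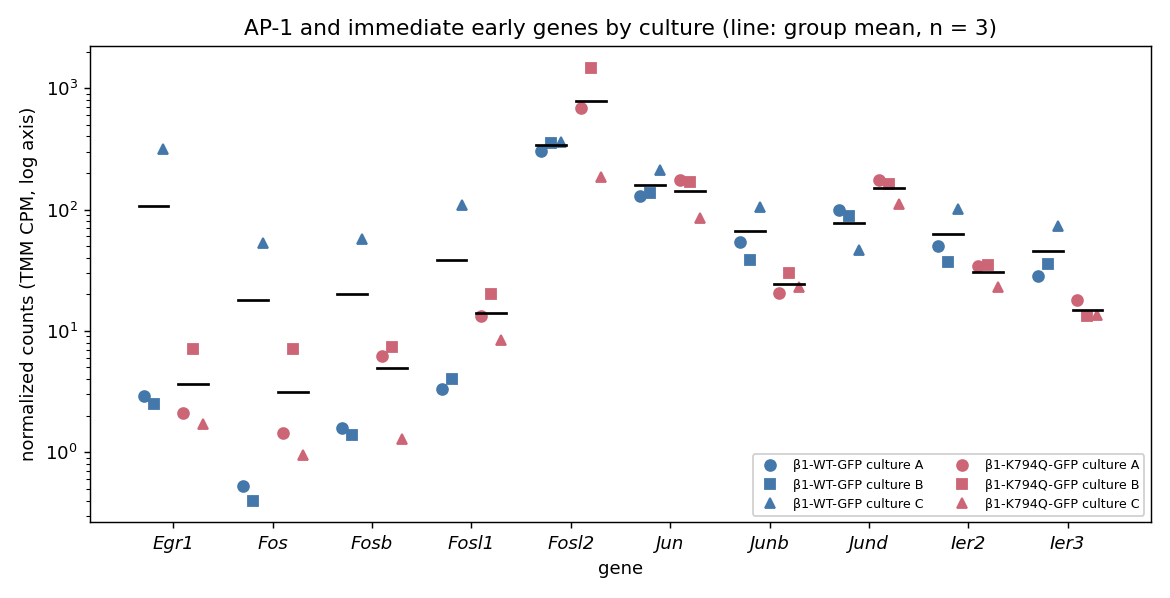
Normalized counts (TMM CPM, log axis) of the 10 genes in each culture, with β1-WT-GFP cultures in blue, β1-K794Q-GFP cultures in red, the culture letter as the symbol and the group mean as a line. Culture C of the β1-WT-GFP cells lay above every other culture in 8 of the 10 genes, and in Egr1 it had 318 normalized counts, where the others had at most 7.11.

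The member genes fell apart by how they behaved in β1-WT-GFP culture C. It was the highest of the 6 cultures for 8 of the 10 members, a position it held in 26.0% of all tested genes. For Egr1, Fos, Fosb and Fosl1 it was at least 5-fold above each of the other cultures, a distance, chosen after the values were seen, that 0.491% of all tested genes reached. For Jun, Junb, Ier2 and Ier3 it was the highest by 1.22- to 2.04-fold over the next culture. Jund was lowest in this culture, and Fosl2 differed by 1.10-fold from the mean of the other β1-WT-GFP cultures. The summed level of 4 smooth muscle markers was also highest there, at 3.34 normalized counts against at most 0.602 elsewhere. It came mostly from 17 counts of Acta2, 26 of Tagln and 4 of Cnn1, whereas Myh11, with 1 count, was lowest there. The part of these markers in the values of the members was not tested.

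Fos encodes the founding Fos protein and is the classical serum-induced gene (chromosome 12 of GRCm38, 85473890 to 85477273). Fos stood at 0.525, 0.400 and 53.4 normalized counts in the β1-WT-GFP cells and at 1.44, 7.11 and 0.946 in the β1-K794Q-GFP cells. Of the 6 cultures 4 had at most 15 counts, and β1-WT-GFP culture C lay 7.52-fold above the next highest, β1-K794Q-GFP culture B. The counts behind the low values were 6 in culture A and 4 in culture B of the β1-WT-GFP cells (exact Poisson 95% intervals 2.20 to 13.1 and 1.09 to 10.2) and 15, 72 and 11 in β1-K794Q-GFP cells (8.40 to 24.7, 56.3 to 90.7 and 5.49 to 19.7), intervals that cover counting error only. The log2 fold change was -2.52 (standard error 1.86, 95% interval -7.02 to 1.97), with an adjusted p of 0.756 from edgeR's quasi-likelihood test. Leaving out β1-WT-GFP culture C gave 2.74 (standard error 1.12, 95% interval -0.08 to 5.57), so that a single culture set its direction.

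Fosb, which encodes a Fos protein with a strong transactivation domain, lies on chromosome 7 (19302696 to 19310051). Its normalized counts were 1.57, 1.40 and 57.2 in β1-WT-GFP cells, and 6.26, 7.40 and 1.29 in β1-K794Q-GFP cells. Here β1-K794Q-GFP culture C was the lowest of all, under β1-WT-GFP cultures A and B, while the other β1-K794Q-GFP cultures lay above these. With all cultures the log2 fold change came to -2.02 (standard error 1.51, adjusted p = 0.759 in edgeR's test), and it came to 1.74 (standard error 0.81, adjusted p = 0.361) without β1-WT-GFP culture C.

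Fosl1 encodes Fra-1, a Fos protein without the transactivation domain of Fos, whose transcription follows sustained ERK and AP-1 activity (chromosome 19, 5447547 to 5455946). Fosl1 stood at 3.32, 3.999 and 108 normalized counts in the β1-WT-GFP cells and at 13.3, 20.2 and 8.43 in the β1-K794Q-GFP cells. Each β1-K794Q-GFP culture lay below β1-WT-GFP culture C and above its A and B counterparts. The log2 fold change was -1.46 (standard error 1.33, 95% interval -4.68 to 1.75, adjusted p = 0.813 from edgeR's test). Without culture C of the β1-WT-GFP cells it was 1.94 (standard error 0.45, 95% interval 0.81 to 3.07), which passed both thresholds with an unadjusted p of 0.0066 and an adjusted p of 0.144 from the same test. In that fit 8.38% of all genes passed them, and among the 10 members only Fosl1 and Ier3 did so. Of the 2033 bases of Fosl1 exons, 1163 are also covered by Ccdc85b on the opposite strand. The strand setting of the counting is not stated in the sources used here, and without strand reads of these 2 genes cannot be told apart. Ccdc85b stood at 51.7, 40.7 and 23.5 normalized counts in the β1-WT-GFP cells, and 41.2 to 48.3 in β1-K794Q-GFP cells, so that it was lowest where Fosl1 was highest.

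Fosl2 encodes Fra-2, a Fos protein related to Fra-1 that is also present in unstimulated cells (chromosome 5, 32135801 to 32157842). It had the most normalized counts of the Fos family in every culture, with 305, 350.0 and 361 in the β1-WT-GFP cells, and 682, 1477 and 184 in β1-K794Q-GFP cells. Per kilobase of exon, however, Fosl1 was above Fosl2 in β1-WT-GFP culture C (53.2 against 37.3). The β1-WT-GFP cultures were close together and β1-K794Q-GFP cultures lay on both sides of them, culture B 8.01-fold above culture C. The log2 fold change of 1.205 (standard error 0.68, 95% interval -0.44 to 2.85) was not past the thresholds (adjusted p = 0.656 in edgeR's test; exact permutation test, two-sided, p = 0.4). It was 1.26 without β1-WT-GFP culture C, and without β1-K794Q-GFP culture C it was 1.67 and passed both thresholds. Without β1-K794Q-GFP culture B, the highest of the 6, it fell to 0.36 (unadjusted p of 0.539 in edgeR's test).

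Jun encodes c-Jun, the main Jun partner of Fos in stimulated cells and a substrate of JNK (chromosome 4, 95049034 to 95052222). Jun stood at 129.99, 138 and 212 normalized counts in the β1-WT-GFP cells and at 173, 167 and 85.0 in the β1-K794Q-GFP cells. The groups overlapped, and the log2 fold change was -0.17 (standard error 0.34, 95% interval -1.00005 to 0.66, adjusted p = 0.927 from edgeR's test). It was 0.10 without β1-WT-GFP culture C and 0.09 without β1-K794Q-GFP culture C.

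Junb encodes a Jun protein that is a weaker activator than c-Jun and can counter its effects on proliferation (chromosome 8, 84974484 to 84978718). Junb stood at 54.4, 38.1 and 105 normalized counts in the β1-WT-GFP cells and at 20.5, 29.9 and 22.9 in the β1-K794Q-GFP cells. All β1-K794Q-GFP cultures lay below all β1-WT-GFP cultures. The means were 24.4 ± 4.89 normalized counts in β1-K794Q-GFP and 65.9 ± 35.0 in the β1-WT-GFP cultures (SD, n = 3 each), for a log2 fold change of -1.43 (standard error 0.40, 95% interval -2.40 to -0.46), with an unadjusted p of 0.0108 and an adjusted p of 0.273 from edgeR's quasi-likelihood test. With β1-WT-GFP culture C left out it was -0.91 (standard error 0.25, adjusted p = 0.185), no longer a 2-fold difference. Exons of Junb share 173 bases with Prdx2 on the opposite strand, and Prdx2 itself had a log2 fold change of -0.32.

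Jund encodes the Jun protein that is expressed most constitutively and is associated with quiescent cells (chromosome 8, 70698949 to 70700616). Jund stood at 98.8, 88.3 and 46.4 normalized counts in the β1-WT-GFP cells and at 174, 163 and 112 in the β1-K794Q-GFP cells. The groups did not overlap, in the direction opposite to Junb. The β1-K794Q-GFP mean was 150 ± 33.6 and the β1-WT-GFP mean 77.8 ± 27.7 normalized counts (SD over 3 cultures), and the log2 fold change was 0.94 (standard error 0.33, 95% interval 0.14 to 1.75), just under a 2-fold difference. The unadjusted p was 0.0283 and the adjusted p was 0.395 in edgeR's test. It was 0.69 without β1-WT-GFP culture C (standard error 0.24, adjusted p = 0.263), and it passed both thresholds without β1-K794Q-GFP culture C (1.12) or without β1-WT-GFP culture A (1.15). The unadjusted p in edgeR's test rose to 0.0789 without culture A of the β1-K794Q-GFP cells (0.82), to 0.0635 without their culture B (0.89) and to 0.05003 when culture B of the β1-WT-GFP cells was omitted (1.04). Of the 1668 bases of Jund exons 877 are also covered by the antisense gene Gm11175, and 232 bases of Jun by Junos, neither of which was in the count table, so that without strand their reads cannot be told apart from those of Jund and Jun.

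**Figure D2:**
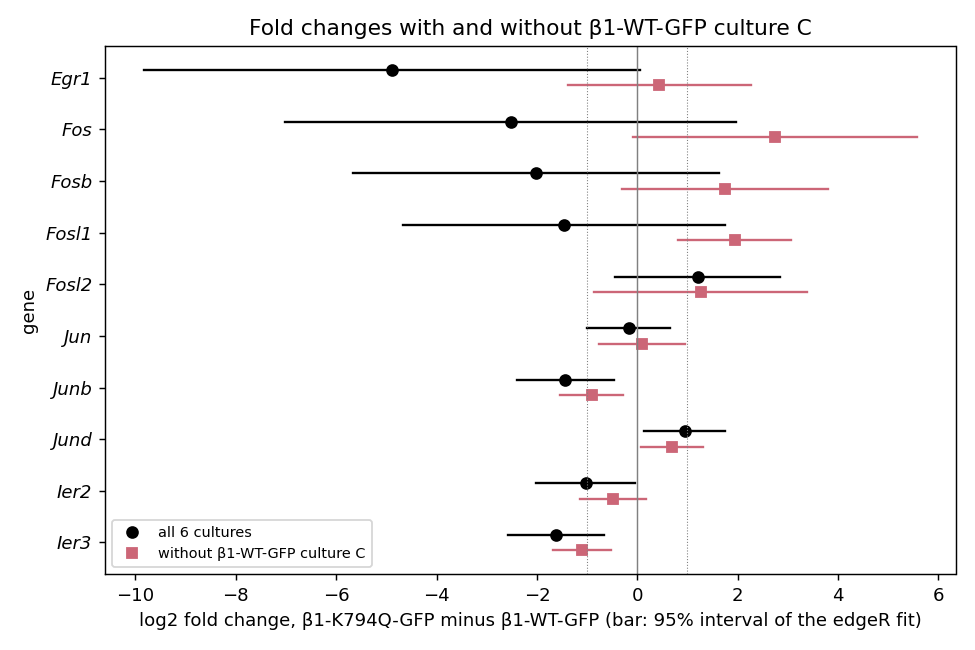
Log2 fold change (β1-K794Q-GFP minus β1-WT-GFP) of the 10 genes with its 95% interval in edgeR's fit of all 6 cultures (black circles) and in a fit that omits β1-WT-GFP culture C (red squares), with dotted lines at a 2-fold change. The estimates of Egr1, Fos, Fosb, Fosl1 and, by little, Jun (-0.17 to 0.10) cross from below 0 to above 0 when that culture is left out. Junb, Ier2 and Ier3 stay below 0, and Jund and Fosl2 stay above it.

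RefSeq promoters were at hand for 7 of the 10 members. The letters TGACG, the core of the cAMP response element to which CREB, ATF and AP-1-related dimers bind, were searched on both strands in the 250 bases before each start. They were found in Fos, Fosb and Junb and in 17.8% of 32851 promoters of that length. The match nearest to the start lay 66 bases before it in Fos, 60 in Fosb and 106 in Junb, and Fos had another match at 129. The promoters of these 3 genes are shown because they hold the match. All 3 genes were highest in β1-WT-GFP culture C, Fos and Fosb by more than 7-fold, but so were 8 of the 10 members. Shown are the 150 bases before the RefSeq start (GRCm38.p6), chr12:85473740-85473889 (plus strand) for Fos, chr7:19310046-19310195 (minus strand) for Fosb and chr8:84978749-84978898 (minus strand) for Junb, with the core in capitals.
Fos: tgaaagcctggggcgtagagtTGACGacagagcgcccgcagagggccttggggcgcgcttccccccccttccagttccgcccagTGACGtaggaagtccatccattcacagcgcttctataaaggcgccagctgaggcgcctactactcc
Fosb: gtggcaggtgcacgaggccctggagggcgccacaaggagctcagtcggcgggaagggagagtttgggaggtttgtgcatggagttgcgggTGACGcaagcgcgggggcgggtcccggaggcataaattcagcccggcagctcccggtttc
Junb: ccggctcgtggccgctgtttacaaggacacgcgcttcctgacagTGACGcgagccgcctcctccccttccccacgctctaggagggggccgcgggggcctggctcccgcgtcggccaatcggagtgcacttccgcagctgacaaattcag
The full element TGACGTCA, which contains the core, the AP-1 site TGANTCA and the CArG box of serum response elements were in none of the 7 windows, and in 1.55%, 6.75% and 1.47% of all promoters. The GC box GGGCGG was in 5 of the 7 windows and in 32.7% of all promoters. The TATA box TATAAA was in that of Fos alone and in 12.4% of all promoters. These matches describe letters in a short window and say nothing on binding or on sites further from the start.

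Ier2 encodes a short-lived nuclear protein induced by growth factors (chromosome 8, 84661331 to 84662852). Ier2 stood at 49.6, 37.0 and 101 normalized counts in the β1-WT-GFP cells and at 34.2, 35.0 and 22.8 in the β1-K794Q-GFP cells. The groups did not overlap, although β1-K794Q-GFP culture B and β1-WT-GFP culture B lay close together. The log2 fold change was -1.03 (standard error 0.41, 95% interval -2.02 to -0.04), with an unadjusted p of 0.0439 and an adjusted p of 0.465 in edgeR's test. It was -0.49 without β1-WT-GFP culture C (standard error 0.26, adjusted p = 0.413), and of the 6 fits with a culture omitted it stayed past both thresholds in 1.

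Ier3, also known as Iex-1, encodes a stress- and ERK-induced protein involved in cell survival (chromosome 17, 35821684 to 35822923). Ier3 stood at 28.3, 35.9 and 72.6 normalized counts in the β1-WT-GFP cells and at 17.9, 13.2 and 13.4 in the β1-K794Q-GFP cells. Every β1-K794Q-GFP culture lay below every β1-WT-GFP culture, with means of 14.8 ± 2.65 and 45.6 ± 23.7 normalized counts (SD, n = 3 each), for a log2 fold change of -1.62 (standard error 0.39, 95% interval -2.57 to -0.67), with an unadjusted p of 0.0056 and an adjusted p of 0.207 in edgeR's quasi-likelihood test. After omission of β1-WT-GFP culture C it was -1.10 (standard error 0.23, adjusted p = 0.123). Whichever of the 6 cultures was omitted, Ier3 stayed past both thresholds.

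The groups did not overlap in 4 of the 10 members, Junb, Jund, Ier2 and Ier3, where 16.6% of all tested genes had no overlap. In each of these 4 genes the exact permutation test of 3 cultures against 3 (two-sided) gave p = 0.1, the smallest it allows.

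Egr1 encodes a zinc finger transcription factor that is induced through ERK and serum response factor and that in endothelial cells responds to shear stress and injury (chromosome 18, 34859823 to 34864984). Egr1 stood at 2.89, 2.499 and 318 normalized counts in the β1-WT-GFP cells, from 33, 25 and 4562 counts. The β1-K794Q-GFP cells showed 2.12, 7.11 and 1.72 normalized counts of Egr1, from 22, 72 and 20 counts. The other 5 cultures thus differed by at most 4.13-fold, and β1-WT-GFP culture C lay 44.7-fold above the highest of them. By this ratio Egr1 ranked at 2 among the 11608 tested genes. The log2 fold change was -4.89 (standard error 2.05, 95% interval -9.83 to 0.06), with an unadjusted p of 0.0521 and an adjusted p of 0.496 in edgeR's test. After β1-WT-GFP culture C was omitted it was 0.44 (standard error 0.72, 95% interval -1.39 to 2.27, adjusted p = 0.804), an interval that holds 2-fold differences in both directions. DESeq2 gave no p for Egr1, Fos, Fosb and Fosl1, the genes it set aside for 1 extreme count. The corepressor Nab2, which binds Egr1 protein and is a target of it, was higher in β1-K794Q-GFP cells, with 47.3, 31.7 and 40.2 against 16.7, 11.3 and 11.5 normalized counts (log2 fold change 1.59, standard error 0.26, unadjusted p of 6.8e-04, adjusted p = 0.0955 in edgeR's test). In β1-WT-GFP culture C, where Egr1 was highest, Nab2 lay between its levels in cultures A and B. Nab1, the other corepressor, had a log2 fold change of -0.02.

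Levels of different genes were compared as normalized counts per kilobase of exon. In the order of their median over the 6 cultures, Jund (63.1 per kb), Jun (47.8), Fosl2 (36.7), Ier2 (23.7), Ier3 (20.4) and Junb (14.8) were followed by Fosl1 (5.34), Fosb (0.627), Egr1 (0.601) and Fos (0.508). Neighbours in this order overlapped in their ranges over the cultures, so that the order is clear only between distant genes, such as Jund, never under 27.8 per kb, and Fosb, never over 9.17 per kb. In β1-WT-GFP culture C the order was different, with Egr1 at 70.9 per kb above Jun at 66.5, Ier2 at 66.4 and Ier3 at 64.2, while Jund was at 27.8 per kb.

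Shares within a family do not depend on the scaling of a library. Fosl2 made up between 80.02% and 93.9% of the Fos family transcripts (counts per kb) in 5 cultures and 30.5% in β1-WT-GFP culture C, where Fosl1 made up 43.5%, Fos 18.6% and Fosb 7.49%. The mean share of Fosl2 was 87.1% ± 6.16 in the β1-K794Q-GFP and 72.7% ± 36.5 in the β1-WT-GFP cultures (SD, n = 3 each; exact permutation test, two-sided, p = 1), and its difference of 14.4 percentage points turned to -6.75 without β1-WT-GFP culture C. Fosl1 made up 8.32%, 5.97% and 17.4% in β1-K794Q-GFP cells, against 4.86% in culture A and 5.11% in culture B of the β1-WT-GFP cells. In the Jun family the groups separated. Jund made up 62.3%, 59.9% and 64.6% in the β1-K794Q-GFP cells, against 47.9%, 47.0% and 19.9% in the β1-WT-GFP cells. Junb made up 5.31%, 7.95% and 9.61% in β1-K794Q-GFP cultures and 19.1%, 14.7% and 32.6% in β1-WT-GFP cells. The share of Jund was 24.0 percentage points higher in β1-K794Q-GFP cells and the share of Junb was lower (-14.5 percentage points), each with no overlap between the groups (exact permutation test of 3 against 3, two-sided, p = 0.1, the smallest possible). In the absence of β1-WT-GFP culture C these differences were 14.8 and -9.29 percentage points. The share of Jun differed by -9.50 percentage points, but its groups overlapped once the longest transcript of each gene was taken as its length (exact permutation test, two-sided, p = 0.3).

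**Figure D3:**
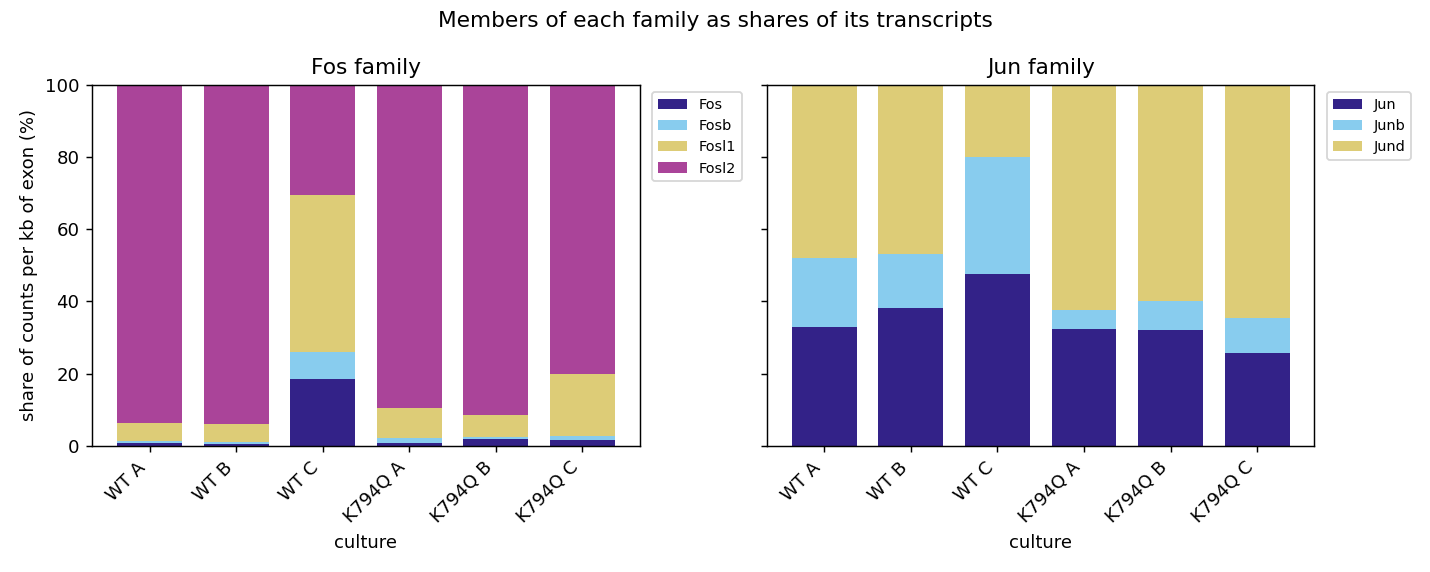
Stacked bars give each gene's share (%) of the counts per kb of exon of its family in each culture, with the Fos family on the left and the Jun family on the right. Fosl2 fills most of the Fos family except in β1-WT-GFP culture C (30.5%), and Jund takes 59.9% to 64.6% of the Jun family in β1-K794Q-GFP cultures against at most 47.9% in β1-WT-GFP cultures.

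How alike the profiles were was measured as the root mean square difference of log2 levels over the 6 cultures, each gene centred on its own mean. Junb and Ier2 were the most alike of the 45 pairs of members (0.30), followed by Junb and Ier3 (0.39) and by Ier2 and Ier3 (0.41). Egr1 and Jund were the least alike (3.08). Among all tested genes the profile nearest to Fosl1 was that of Cd44 (0.29), the hyaluronan receptor and an AP-1 target, with 17.7, 21.5 and 423 normalized counts in β1-WT-GFP cells, and 99.5, 121 and 53.6 in β1-K794Q-GFP cells. Lhfp (0.39) was also among the nearest. Nearest to Fos were Dclk1 (0.50), Ano1 (0.58) and Fn1, the fibronectin gene (0.65), and nearest to Egr1 were Htra1 (0.72), Nrg1 (0.94) and Sprr2b (0.97). These values describe 6 points, and β1-WT-GFP culture C was the highest of them in each of the nearest genes named.

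Other immediate early genes were taken from a list of 36, of which 32 were tested. At the thresholds the β1-K794Q-GFP cells had 2 of these higher and 2 lower, 12.5% of those tested against 5.19% of all genes, and β1-WT-GFP culture C was the highest culture in 9 of the 32 (28.1%, against 26.0% of all tested genes). Klf4, a factor of endothelial quiescence, was higher, at 192, 283 and 153 normalized counts in the β1-K794Q-GFP cells against 71.0, 72.6 and 102 in β1-WT-GFP cells (log2 fold change 1.36, standard error 0.29, adjusted p = 0.161 in edgeR's test). The orphan receptor gene Nr4a2 was higher as well (log2 fold change 1.25, standard error 0.44, adjusted p = 0.402). Nfkbiz, which encodes a nuclear regulator of NF-kB, was lower with 48.9, 31.8 and 39.0 against 154, 145 and 132 normalized counts (log2 fold change -1.85, standard error 0.21, adjusted p = 0.0474). Zfp36, whose product shortens the life of AU-rich messengers, was lower with 12.5, 12.0 and 7.57 against 18.5, 14.7 and 58.6 normalized counts (log2 fold change -1.52, adjusted p = 0.436), and at -0.62 without β1-WT-GFP culture C it no longer passed. Plk2 was the most abundant gene of the list per kilobase.

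Some genes of this list were, like Egr1, far higher in β1-WT-GFP culture C, and others were lowest there. Cyr61 and Ctgf, which encode secreted matricellular proteins, had 3.85, 2.20 and 610.4 and 0.787, 0.700 and 309 normalized counts in β1-WT-GFP cells, and at most 22.9 and 17.2 in β1-K794Q-GFP cells. Egr2 and Egr3, under the filter on low counts, had 53 and 7 counts in β1-WT-GFP culture C and at most 2 and 0 in any other. In contrast Ets2, Ier5, Btg1, Btg2, Irf1, Zfp36l1 and Ier5l were lowest in that culture. The fit without it had 6 genes of the list higher (Nr4a1, Nr4a2, Klf4, Cyr61, Ctgf and Phlda1) and 2 lower (Nfkbiz and Irf1) in β1-K794Q-GFP cells, of which Nr4a2, Klf4 and Nfkbiz were also past the thresholds with all cultures. In that fit 8.38% of all genes passed.

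**Figure D4:**
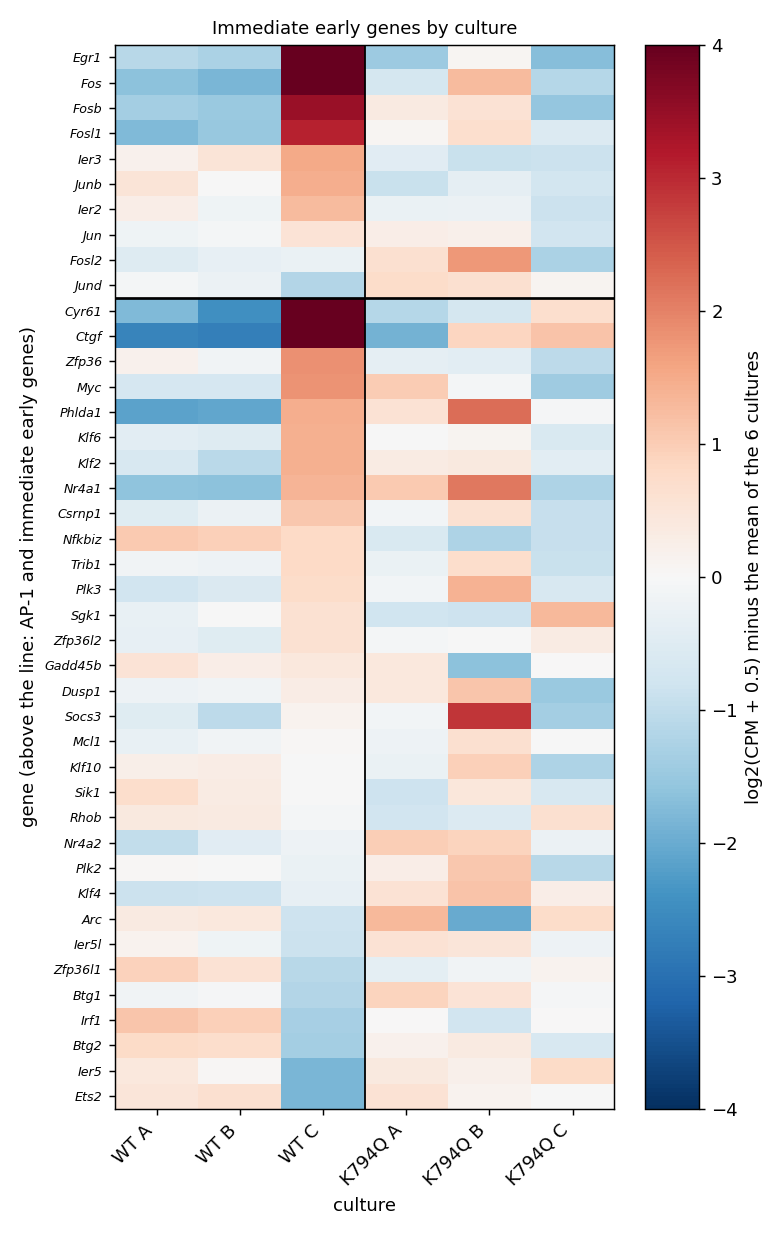
Colour gives log2(CPM + 0.5) minus the mean of the 6 cultures for the 10 genes (above the horizontal line) and the 32 other immediate early genes tested (below it), with colours ending at 4 on either side of 0 and genes ordered by β1-WT-GFP culture C. The dark red column segments show Egr1, Fos, Fosb, Fosl1, Cyr61 and Ctgf in β1-WT-GFP culture C.

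Genes that feed into and act with AP-1 were counted in short lists, beside the 5.19% of all tested genes that passed the thresholds. Lists this short cannot be told apart from that share. Of the 9 tested AP-1 dimer partners, 8 SRF and TCF regulators, 14 MAP kinase pathway genes and 4 AP-1 turnover factors, 0 passed the thresholds. Their median log2 fold changes were -0.42, 0.04, 0.03 and -0.06, against -0.02 over all tested genes. Without β1-WT-GFP culture C the partner Maf, with at most 26 counts in a culture, passed as higher. The most abundant per kilobase were Elk3 among the SRF and TCF regulators, Mapk3 among the MAP kinase pathway genes and Itch among the turnover factors. Atf3, an inducible Jun partner, stood at 17.2, 20.5 and 48.4 normalized counts in the β1-WT-GFP cells and 19.7, 48.0 and 3.27 in β1-K794Q-GFP cells, so that the groups overlapped. Of 16 tested AP-1 target genes 0 passed, with a median log2 fold change of -0.73. In 9 of them (56.3%, against 26.0% of all tested genes) β1-WT-GFP culture C was highest. Among these were Plaur, the urokinase receptor gene (304 normalized counts against at most 70.7 elsewhere), and Hmox1, the heme oxygenase gene (757 against at most 262), the most abundant of the list per kilobase. Without that culture 3 were higher (Cd44, Ezr and Hbegf) and Spp1 was lower, and the median was 0.65. In that fit 8.38% of all genes passed, and the median over all genes was 0.04.

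The labelled cell type was checked against its markers. All 11 endothelial markers were tested and 0 passed the thresholds, where Cldn5 passed as lower without β1-WT-GFP culture C. Their summed level was 8718 to 9754 normalized counts in β1-WT-GFP cells and 7125 to 13757 in β1-K794Q-GFP cells, led per kilobase by Cdh5. In β1-WT-GFP culture C this sum was 8718, but single markers differed from cultures A and B in both directions. Normalized counts were lower there for Cldn5 (4.74 against 267 and 252) and Erg (228 against 606 and 596). So were those of Egfl7 (379 against 1051 and 863), Tek (366 against 601 and 688), Tie1 and Esam. Cdh5 (2227 against 1338 and 1564), Kdr (1154 against 777 and 798), Emcn and Eng were higher than in A and B, and Pecam1 lay between. Cldn5 was at most 24.3 in β1-K794Q-GFP cultures. Of 8 mesenchymal markers 2 were tested, and 3 (Dcn, Lum and Twist1) had 0 counts in every culture. Prrx1, a homeobox gene of mesenchyme and the most abundant of the list per kilobase, had 2097, 1936 and 812 counts in β1-WT-GFP cells and at most 1 in a β1-K794Q-GFP culture (adjusted p = 0.0198 in edgeR's test). The summed mesenchymal level was 184, 195 and 81.2 normalized counts in β1-WT-GFP cells, and 2.58 to 3.75 in β1-K794Q-GFP cells. In β1-WT-GFP culture C 3 of these 8 markers were at their highest, Pdgfra with 236 counts, Col1a1 with 85 and Pdgfrb with 33. That culture was the highest in 26.0% of all tested genes. Col1a2 had 0 counts there and 32 in β1-K794Q-GFP culture B. Of 4 smooth muscle markers 3 were highest there (Acta2 17, Tagln 26 and Cnn1 4 counts), with a summed level of 3.34 normalized counts against at most 0.602 elsewhere. The other, Myh11, was lowest there in normalized counts, with 1 count against 1 to 4 elsewhere. Epithelial markers (Krt8 leading) summed to at most 0.592 normalized counts, with Epcam and Krt18 at 0 counts, and of the 5 leukocyte markers only Cd68 was tested (log2 fold change 0.02), while Ptprc had 4 counts in β1-WT-GFP culture C and 0 elsewhere. Whether cells of other types were present in a culture, and what part they had in the values of the members, was not tested.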

How the data were processed

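Total RNA of 3 cultures per group was sequenced after ribosomal RNA depletion. The authors deposited raw read counts per mouse gene symbol, not normalized; the submitters' processing notes list bcl2fastq 2.20.0, STAR 2.7.4a, HTSeq 0.9.1, edgeR 3.38.4 and mm10, and the annotation and strand setting are not given in the sources used here. The 6 columns were used, with 0 further columns of values. Members and lists were chosen with earlier results of these data known, so that no p is given for a list.

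edgeR 4.0.16 (R 4.3.3) was run on the counts of all genes (filterByExpr, 11608 of 23420 kept; TMM; quasi-likelihood F-test, two-sided, common dispersion 0.186; intervals from the test's own degrees of freedom), after the script was tested on simulated data. The call rule was that of the study's methods, a 2-fold difference and an unadjusted p no greater than 0.05. The text names every member, the called genes and the most abundant gene of each list, and the 3 nearest profiles of Fos, Fosl1 and Egr1; other genes were named after their values were seen, and some that the rule names are not reported here. Alternatives were other filters, RLE and upper quartile scaling, the likelihood ratio test, DESeq2 1.42.0, the culture letter as a block and each culture left out. Positions and exon lengths came from GENCODE M21 (GRCm38) and promoters from RefSeq (GRCm38.p6). Exact tests used scipy 1.17.1 and plots matplotlib 3.10.9 (Python 3.11.15). Of a planned list of mitochondrial transcripts 0 symbols matched, and it was not analysed here. The 5-fold distance of β1-WT-GFP culture C was set after its values were seen.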

Additional observations from a re-analysis of the deposited data

How the results depend on the processing

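The count of genes past both thresholds was 603, and 605 with RLE and 606 with upper quartile scaling, but 916 with no filter on low counts and between 501 and 992 with a culture left out, the highest without β1-WT-GFP culture C and 942 without β1-K794Q-GFP culture B. At an adjusted p of at most 0.05 it was 21, against 318 with edgeR's likelihood ratio test, 477 with DESeq2, 9 with upper quartile scaling, 4 with at least 10 counts in every culture, 1 with the culture letter as a block and 0 to 125 with a culture left out. The number of members past both thresholds lay between 2 and 4 in every setting. Ier3 was among them each time, Junb each time but without β1-WT-GFP culture C, and Egr1 with no filter (-4.90), with at least 10 counts in every culture (-4.89), with the likelihood ratio test (-4.88) and without β1-WT-GFP culture A or B.

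With a culture left out, the log2 fold change ranged from -5.82 to 0.44 for Egr1, -3.94 to 2.74 for Fos, -2.57 to 1.74 for Fosb, -2.01 to 1.94 for Fosl1 and -0.35 to 0.10 for Jun. For these the upper end came without β1-WT-GFP culture C, and the cause was not tested. It ranged from 0.36 to 1.67 for Fosl2, lowest without β1-K794Q-GFP culture B, and from 0.69 to 1.15 for Jund, with a p above 0.05 in 3 of the 6 fits. The difference in family share (percentage points) ranged from -8.18 to 0.88 for Fos, -3.17 to 0.29 for Fosb, -13.7 to 5.58 for Fosl1 and -6.75 to 24.9 for Fosl2, and its direction was the same with the longest transcript as length.

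Cultures with the same letter shared little beyond it (correlations of deviations 0.09, 0.05 and 0.10 for A, B and C, and β1-K794Q-GFP culture A was nearest to β1-WT-GFP culture B). With the letter as a replicate block 571 genes and 2 members, Junb and Ier3, passed, and the log2 fold changes of Fos, Fosb and Fosl1 became 0.44, 0.43 and 0.63, and that of Egr1 became -1.45 (standard error 2.23). The depth limits Fos most, with 4 to 15 counts in 4 of the cultures.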
